A study of Homo sapiens with 3 samples.

Results

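The ferritin and iron handling genes *FTH1*, *FTL*, *TFRC*, *SLC40A1*, *SLC11A2*, *STEAP3*, *IREB2*, *ACO1*, *NCOA4* and *HMOX1* were taken by name from a table of 44591 genes, and all 10 were found in it. RNA had been sequenced from Caki-1, an established human cell line labelled as clear cell renal cell carcinoma. Cells had received si-Control, a non-targeting siRNA, or 1 of 2 siRNAs against HOIL-1 (si-HOIL-1#1 and si-HOIL-1#2). HOIL-1 is another name for RBCK1, a ubiquitin ligase. RNA was extracted 48 h after transfection and each condition gave a single library, so 3 were compared. No difference below therefore has a replicate check and no p-value is given. Because si-HOIL-1#1 and si-HOIL-1#2 differ in sequence they were kept apart, and both comparisons share the si-Control library. The list was chosen with the differences from si-Control in view, so those differences are a description.

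Ferritin is the iron store of the cell, a hollow shell built of heavy chains (*FTH1*), which oxidize iron, and light chains (*FTL*), which help to lay it down as mineral. Iron enters bound to transferrin through the transferrin receptor (*TFRC*), is reduced by *STEAP3* and leaves the endosome through *SLC11A2* (DMT1), while ferroportin (*SLC40A1*) exports it. When iron is scarce, the iron regulatory proteins IRP1 (*ACO1*) and IRP2 (*IREB2*) bind hairpins called iron responsive elements, which blocks translation of ferritin mRNA and protects *TFRC* mRNA from decay. *NCOA4* carries ferritin to the lysosome, and heme oxygenase 1 (*HMOX1*) frees iron from heme. HOIL-1 has been described as a ligase that recognizes oxidized IRP2, although other ligases are better known for that role. Much of this control acts on translation and protein stability, which mRNA levels do not show.

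Hairpin sequences are shown for ferritin light chain, ferroportin and the transferrin receptor, whose mRNAs are well known to carry iron responsive elements. The longest coding transcript of each gene in GENCODE v29 was searched for C, 5 bases, CAGTG or CAGAG, any base, and 5 bases that pair with the first 5 (G with T allowed). The sequences run 5′ to 3′ with 6 more bases on each side, and the capitals mark the first 5 bases of the loop.
*FTL* 5′ UTR: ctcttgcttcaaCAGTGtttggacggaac
*SLC40A1* 5′ UTR: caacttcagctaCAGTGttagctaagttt
*TFRC* 3′ UTR, match 1: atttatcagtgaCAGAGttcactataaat
*TFRC* 3′ UTR, match 2: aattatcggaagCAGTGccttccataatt
*TFRC* 3′ UTR, match 3: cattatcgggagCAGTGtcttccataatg
*TFRC* 3′ UTR, match 4: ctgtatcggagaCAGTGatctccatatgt
*TFRC* 3′ UTR, match 5: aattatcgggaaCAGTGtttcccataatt
In GRCh38 the *FTL* hairpin lies at chr19:48965335-48965363 on the plus strand in exon 1, and that of *SLC40A1* at chr2:189580661-189580689 on the minus strand in exon 1. The 5 *TFRC* hairpins lie in exon 19 on the minus strand, between chr3:196050463-196050491 and chr3:196051029-196051057. *FTH1* held 1 match in its 5′ UTR, at chr11:61967574-61967602 on the minus strand, which differed from that of *FTL* at 3 of 29 bases. *STEAP3* held 1 match in its 3′ UTR, with the loop CAGAG, and the transcripts searched for *SLC11A2*, *IREB2*, *ACO1*, *NCOA4* and *HMOX1* held 0. Of 10568 genes searched, 3.16% held a match and 1 gene, *TFRC*, held 5. A match is a description of the letters and not of binding, and other known elements do not have these strict pairs. Other transcripts of a gene were not searched, so 0 matches does not show that the gene lacks an element.

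Levels were taken as RPKM, reads scaled for the length of the gene and the depth of the library, so that genes of different length can be compared. The low values of the table are whole multiples of 1 read, which gave back library totals of 36926834 reads (si-Control), 40442939 reads (si-HOIL-1#1) and 36344428 reads (si-HOIL-1#2). A difference is given as a log2 ratio to si-Control on the RPKM + 1 scale, which understates the change of low genes. Intervals (95%, exact Clopper-Pearson) are on the log2 ratio of the reads themselves, without the added 1, and cover counting error only. A filter kept the 12403 of 44591 genes that averaged 1 RPKM or more, and 9 of the 10 members passed it.

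The targeted gene *RBCK1* stood at 33.3, 9.97 and 12.3 RPKM in si-Control, si-HOIL-1#1 and si-HOIL-1#2. The kidney factor *PAX8* and *VIM*, *KRT8* and *KRT18* exceeded 1 RPKM in every library. *CA9*, which clear cell tumors usually express, and *PAX2* were under 1 RPKM in all 3 libraries. The summed level of the 7 renal and epithelial markers was 951 RPKM with si-Control, 1909.9 RPKM with si-HOIL-1#1 and 1909 RPKM with si-HOIL-1#2, and its part in the results below was not tested. The sum was carried mostly by *VIM* (664, 1512 and 1392 RPKM) and by the keratins, with *KRT8* at 65.6, 172 and 238 RPKM. *PAX8* (124, 82.5 and 107 RPKM) and *NDUFA4L2* (2.12, 0.645 and 0.741 RPKM) were instead lower with both siRNAs. Of 19 markers of leukocytes, fibroblasts, endothelium, erythroid cells and hepatocytes, *CD68* (41.8 to 52.3 RPKM) and *COL1A1* (3.21 to 4.68 RPKM) exceeded 1 RPKM in every library and the other 17 were under it in each.

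*STEAP3* and *HMOX1* differed most from si-Control, in opposite directions, and *FTH1* was lower with both siRNAs while *FTL* stayed close to its si-Control level. At least 2-fold, 2 of 9 members differed with si-HOIL-1#1 (*STEAP3* higher, *HMOX1* lower), where 6.18% of all genes past the filter did. With si-HOIL-1#2 the count was 1 of 9 (*STEAP3*), beside 4.76% of all genes, and with both siRNAs it was again *STEAP3*, beside 2.87%. At 1.5-fold the counts were 2 of 9 (23.7% of all genes), 4 of 9 (20.6%) and 2 of 9 (13.7%). The 4 with si-HOIL-1#2 were *STEAP3*, *HMOX1*, *SLC11A2* and *FTH1*. The median log2 ratio of the 9 members was 0.03 with si-HOIL-1#1 and -0.10 with si-HOIL-1#2, beside 0.02 and 0.03 over all 12403 genes. Nothing is read from these counts, since the list was chosen on the same contrast.

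**Figure D1:**
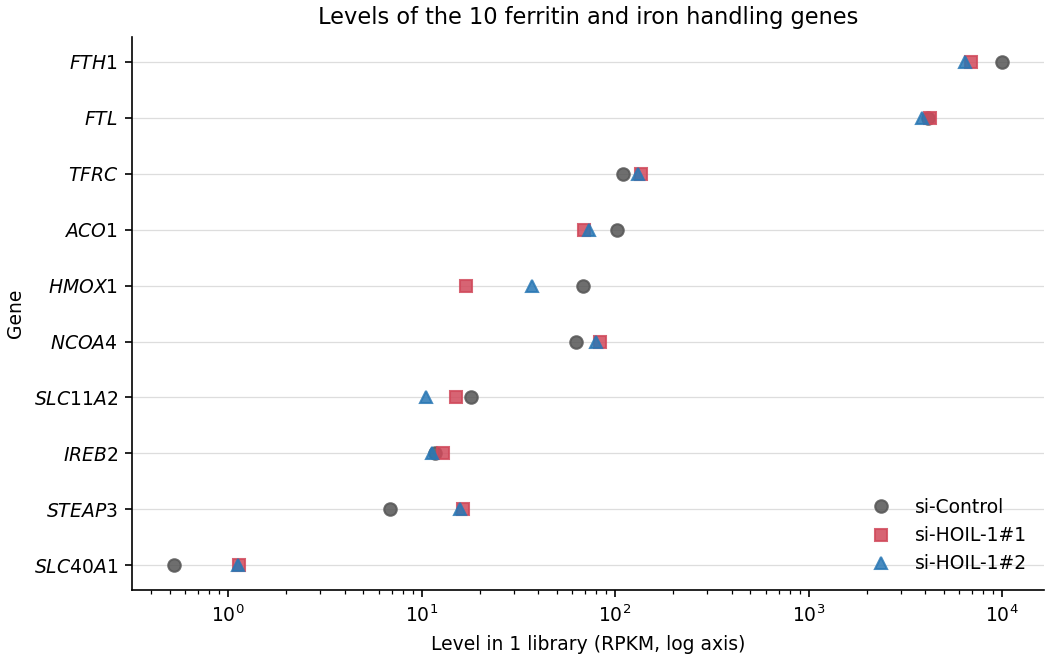
Level of each of the 10 genes in each library, in RPKM on a log axis, with 1 point per library. *FTH1* and *FTL* sit above the other 8 genes in all 3 libraries, *SLC40A1* sits near 1 RPKM, and the widest gap between libraries is that of *HMOX1*.

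Ferritin heavy chain transcripts were lower with both siRNAs. *FTH1* lies on chromosome 11 from 61731757 to 61735132 on the minus strand in the table's coordinates, for which the submitters' notes name hg19. It was at 10033 RPKM in si-Control cells (455320 reads), 6872 RPKM with si-HOIL-1#1 (341562 reads) and 6402 RPKM with si-HOIL-1#2 (285975 reads). Among the 10775 protein-coding genes past the filter it ranked 1 in si-Control and 2 in both of the others. Both siRNA libraries were thus below si-Control, at 68.5% and 63.8% of its level. The log2 ratios were -0.55 (interval -0.55 to -0.54) and -0.65 (interval -0.65 to -0.64).

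Light chain transcripts were close to their si-Control level. *FTL*, on chromosome 19 from 49468566 to 49470136, was at 4120 RPKM in si-Control cells, 4218 RPKM with si-HOIL-1#1 and 3850 RPKM with si-HOIL-1#2. It ranked 8, 7 and 7 in the same order. Its log2 ratios had opposite signs, 0.03 (interval 0.02 to 0.04) and -0.10 (interval -0.11 to -0.09), and the first became -0.02 when libraries were scaled to equal totals. Read numbers of 121880 to 148582 make these intervals narrow, and the difference between cultures, which they do not cover, is unknown.

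The ratio of heavy to light chain transcripts, taken within a library and so free of its scaling, was 2.43 with si-Control (interval 2.42 to 2.45). It was 1.63 with si-HOIL-1#1 (interval 1.62 to 1.64) and 1.66 with si-HOIL-1#2 (interval 1.65 to 1.67). The siRNA libraries lay closer to each other than to si-Control. Both chains together took 1.59% of the reads of the si-Control library, 1.21% with si-HOIL-1#1 and 1.12% with si-HOIL-1#2.

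**Figure D2:**
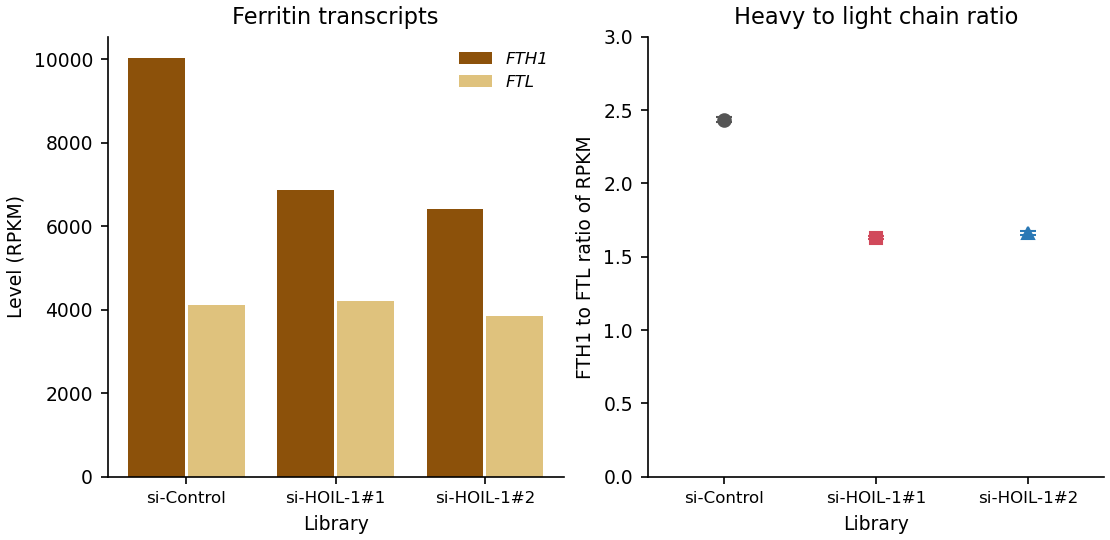
Left, RPKM of *FTH1* and *FTL* in each library as bars from 0. Right, the ratio of *FTH1* to *FTL* RPKM in each library with 95% counting intervals, 2.43 in si-Control and 1.63 and 1.66 in the siRNA libraries.

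Many processed copies of the ferritin genes lie in the genome, and how reads that match several of them were counted is not given in the sources used here. The table lists 21 copies of *FTH1*, 7 of them past the filter, with 1691, 1502 and 950 reads in si-Control, si-HOIL-1#1 and si-HOIL-1#2. That is 0.371%, 0.440% and 0.332% of the reads of *FTH1*. The log2 ratios of these 7 ran from -1.03 (*FTH1P20*) to 0.02 (*FTH1P23*) with si-HOIL-1#1 and from -0.93 to -0.26 with si-HOIL-1#2. With its copies added, *FTH1* had log2 ratios of -0.54 and -0.65. The 10 listed copies of *FTL* held 14, 21 and 17 reads in all. The 3′ end of *FTH1* also overlaps *BEST1* on the other strand by 179 bases, and *BEST1* was at 5.32, 2.36 and 2.58 RPKM.

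*NCOA4*, the receptor that delivers ferritin to autophagosomes, was higher with both siRNAs. It was at 62.9 RPKM in si-Control cells, 83.6 RPKM with si-HOIL-1#1 and 79.4 RPKM with si-HOIL-1#2, log2 ratios of 0.40 (interval 0.37 to 0.45) and 0.33 (interval 0.30 to 0.37). In the table's coordinates *NCOA4* (chromosome 10, 51565108 to 51590734) lies wholly within *TIMM23B* on the same strand, so its reads may be split with that gene. *TIMM23B* was at 4.29, 3.97 and 2.80 RPKM in the same order.

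*TFRC*, the entry point of transferrin iron and the gene with 5 hairpins, was at 109.8 RPKM in si-Control cells, 137 RPKM with si-HOIL-1#1 and 131 RPKM with si-HOIL-1#2. Both siRNA libraries were higher, by log2 ratios of 0.31 (interval 0.29 to 0.34) and 0.26 (interval 0.23 to 0.29), less than 1.5-fold. Set against *FTH1*, *TFRC* stood at 1.09% of the heavy chain level in si-Control, 1.99% with si-HOIL-1#1 and 2.05% with si-HOIL-1#2.

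*STEAP3*, the reductase of the transferrin endosome and a known p53 target (TSAP6), was, of the 9 members past the filter, the one that differed at least 2-fold with both siRNAs. The gene spans 119981384 to 120023228 of chromosome 2 and measured 6.84 RPKM in si-Control cells (1158 reads), 16.3 RPKM with si-HOIL-1#1 (3027 reads) and 15.8 RPKM with si-HOIL-1#2 (2639 reads). The siRNA libraries were close to each other and both were above si-Control. Its log2 ratios were 1.14 and 1.10, and on reads alone 1.26 (interval 1.16 to 1.35) and 1.21 (interval 1.11 to 1.31). With an added 5 RPKM in place of 1 RPKM they were 0.85 and 0.82, below 2-fold. The antisense gene *STEAP3-AS1*, which overlaps it, was at 0.13 to 0.43 RPKM.

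*SLC11A2*, which moves iron out of the endosome, was at 18.1 RPKM in si-Control cells, 14.98 RPKM with si-HOIL-1#1 and 10.6 RPKM with si-HOIL-1#2. It was lower with both siRNAs, by unequal amounts, with log2 ratios of -0.26 and -0.73. On reads the intervals were -0.33 to -0.21 and -0.85 to -0.71, and the log2 ratio of si-HOIL-1#2 to si-HOIL-1#1 was -0.51 (interval -0.58 to -0.43).

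The siRNAs are shown because an siRNA can also lower transcripts that pair with its seed, guide positions 2 to 8. The sense strands listed with the study, matched to the libraries by their numbers, run 5′ to 3′, with the letters that a seed match in an mRNA would hold in capitals.
si-HOIL-1#1: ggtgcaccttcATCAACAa
si-HOIL-1#2: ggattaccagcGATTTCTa
The match of si-HOIL-1#2 occurs 1 time in the *SLC11A2* transcript searched and 2 times in that of *IREB2*, and the match of si-HOIL-1#1 occurs 1 time in *TFRC* and 1 time in *IREB2*. The transcripts searched for the other 7 members held 0 matches of either. Matches were counted anywhere in the transcript, coding part included, and other transcripts of a gene were not searched. These matches are common, in 23.8% and 29.2% of 10568 genes, and their part in the levels was not tested.

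*SLC40A1*, ferroportin, the iron exporter, was barely detected and did not pass the filter, with a mean of 0.930 RPKM. It had 65 reads with si-Control (0.525 RPKM), 154 with si-HOIL-1#1 (1.13 RPKM) and 138 with si-HOIL-1#2 (1.13 RPKM). Both siRNA libraries were higher, with log2 ratios of the reads of 1.11 (interval 0.69 to 1.55) and 1.11 (interval 0.67 to 1.56), the widest intervals of the list. On the RPKM + 1 scale the log2 ratios were 0.49 and 0.48.

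Of the iron regulatory proteins, *ACO1* (IRP1, which is cytosolic aconitase when it holds an iron-sulfur cluster) was lower with both siRNAs and *IREB2* (IRP2) was close to si-Control. *ACO1*, on chromosome 9 from 32384601 to 32450834, was at 103 RPKM in si-Control cells, 69.5 RPKM with si-HOIL-1#1 and 73.4 RPKM with si-HOIL-1#2. Its log2 ratios were -0.56 (interval -0.60 to -0.53) and -0.48 (interval -0.52 to -0.45). *IREB2*, on chromosome 15 from 78730518 to 78793798, was at 11.7, 12.9 and 11.3 RPKM. Its log2 ratios were 0.13 (interval 0.07 to 0.21) and -0.05 (interval -0.13 to 0.02), of opposite sign, and the second was within counting error. *ACO1* RPKM exceeded *IREB2* RPKM 8.76-fold in si-Control, 5.37-fold with si-HOIL-1#1 and 6.50-fold with si-HOIL-1#2.

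*HMOX1*, the inducible enzyme that breaks down heme, was the member that differed most between the siRNAs. The gene spans 35777060 to 35790207 of chromosome 22 and measured 68.2 RPKM in si-Control cells (4006 reads), 16.9 RPKM with si-HOIL-1#1 (1086 reads) and 37.3 RPKM with si-HOIL-1#2 (2157 reads). Among protein-coding genes it ranked 859 in si-Control, 3786 with si-HOIL-1#1 and 1752 with si-HOIL-1#2. Both siRNA libraries were lower, at 24.8% and 54.7% of si-Control. The log2 ratios were -1.95 and -0.85, with intervals on reads of -2.11 to -1.92 and -0.95 to -0.79. The direct log2 ratio of the reads, si-HOIL-1#2 to si-HOIL-1#1, was 1.14 (interval 1.04 to 1.25). In these bulk libraries, a loss of transcripts in part of the cells and a lower level in each cell cannot be told apart.

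**Figure D3:**
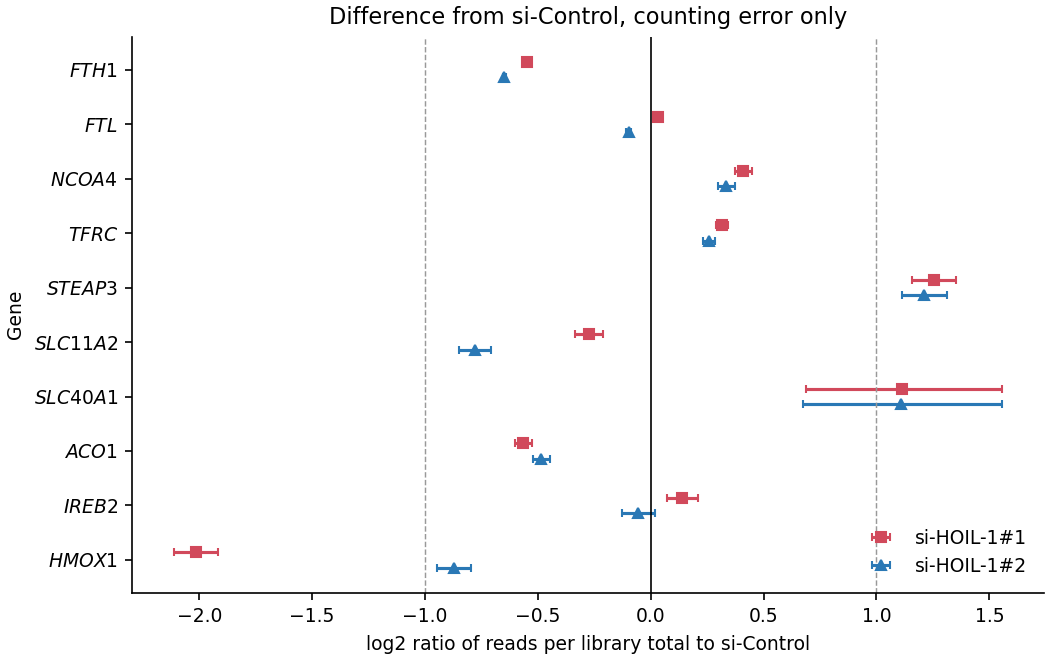
Log2 ratio of reads per library total to si-Control for each gene, with 95% counting intervals; dashed lines mark 2-fold. *STEAP3* and *SLC40A1* (with wide intervals) lie past the upper line with both siRNAs, *HMOX1* lies past the lower line with si-HOIL-1#1, and *IREB2* and *FTL* fall on both sides of 0 (*FTL* below 0 with both at equal totals).

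**Figure D4:**
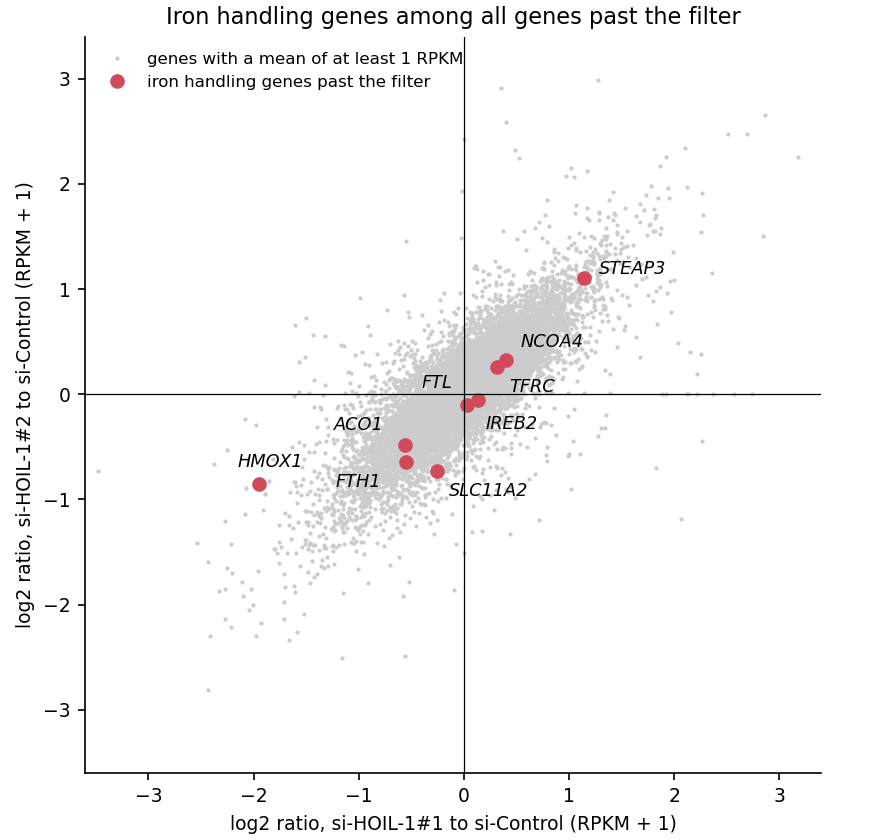
Log2 ratio (RPKM + 1) with si-HOIL-1#2 against that with si-HOIL-1#1 for all 12403 genes past the filter in grey and the 9 members past it in red. *STEAP3* lies at 1.14 and 1.10, *HMOX1* at -1.95 and -0.85, and both axes share the si-Control library.

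The rest of iron and heme metabolism was read from 7 lists of other genes, written from general knowledge, with 109 genes in the table and 90 past the filter. With both siRNAs, 5 of the 90 were at least 1.5-fold higher and 6 at least 1.5-fold lower, beside 7.47% and 6.24% of all genes past the filter.

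Among 10 genes of iron uptake and export past the filter, 1 was at least 1.5-fold higher with both siRNAs and 2 were lower. *LCN2*, lipocalin 2, which binds iron-laden siderophores, was at 143 RPKM in si-Control cells, 23.8 RPKM with si-HOIL-1#1 and 52.9 RPKM with si-HOIL-1#2. As with *HMOX1*, its log2 ratio was larger in size with si-HOIL-1#1 (-2.54) than with si-HOIL-1#2 (-1.42). *SLC39A14*, an importer of iron that is not bound to transferrin, had log2 ratios of -0.92 and -0.59, and *HFE*, which partners the transferrin receptor, had 0.66 and 0.81 at levels under 5 RPKM. Transferrin (*TF*) and hepcidin (*HAMP*), products of the liver, were under 1 RPKM in each library. The medians over these genes were 0.11 and -0.03.

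The list for IRP control and hairpin-bearing mRNAs, whose hairpins were not all checked, had 10 genes past the filter. Of these, 1 differed at least 1.5-fold with both siRNAs. It was *RBX1*, the RING subunit of cullin ligases, with log2 ratios of 0.87 and 0.93. Past that limit with 1 siRNA only were *CDC42BPA* (-1.03 and -0.54), *CDC14A* (-0.16 and -0.65) and *HERC2* (0.60 and 0.54). The strict search above found 1 match each in *CDC42BPA* and *CDC14A*. *FBXL5*, the iron-sensing adaptor of the ligase that degrades IRP2, had 0.39 and 0.02. *EPAS1*, which encodes HIF-2 alpha and carries a hairpin in its 5′ UTR, had -0.58 and -0.40, although the strict search above found 0 matches in it.

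The iron chaperones that load ferritin lay on opposite sides of their si-Control levels. *PCBP1* was at 117 RPKM in si-Control cells, 157 RPKM with si-HOIL-1#1 and 148 RPKM with si-HOIL-1#2, and *PCBP2* at 168, 132 and 128 RPKM. Their log2 ratios were 0.42 and 0.34 for *PCBP1* and -0.35 and -0.40 for *PCBP2*. In the same list of 9 genes past the filter, *TAX1BP1*, an autophagy receptor that acts with *NCOA4*, had log2 ratios of -0.85 and -0.74. *RB1CC1* (FIP200), which helps to start autophagosomes, had -0.78 and -0.62. These 2 genes were at least 1.5-fold lower with both siRNAs, and 0 of the 9 were higher to that extent. *ATG9A*, which supplies membrane to autophagosomes, lay just under that limit in the other direction, with log2 ratios of 0.58 and 0.58. *WDR45* of the same list was lower, with log2 ratios of -0.78 and -0.55, past that limit with si-HOIL-1#1 only.

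Of 22 genes of mitochondrial iron and iron-sulfur cluster assembly, 1 was at least 1.5-fold higher with both siRNAs and 0 were lower. *FDXR*, ferredoxin reductase, which passes electrons to cluster assembly and is a known p53 target like *STEAP3*, was at 10.2 RPKM in si-Control cells, 38.4 RPKM with si-HOIL-1#1 and 31.8 RPKM with si-HOIL-1#2. Its log2 ratios were 1.82 and 1.55, and the part of p53 in the levels of *FDXR* and *STEAP3* was not tested. The medians of this list were 0.14 and 0.10. In the cytosolic assembly pathway, 0 of 9 genes differed to that extent with both, at medians of 0.25 and 0.03.

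For heme genes the medians were 0.29 and 0.24, and 11 of the 15 past the filter were above 0 in each comparison. Over all genes past the filter, 6393 of 12403 were above 0 with si-HOIL-1#1 and 6641 with si-HOIL-1#2. *CPOX*, coproporphyrinogen oxidase of heme synthesis, was the gene at least 1.5-fold higher with both, at log2 ratios of 0.82 and 0.98. *HMOX2*, the constitutive heme oxygenase, was at 19.8, 24.8 and 29.5 RPKM in si-Control, si-HOIL-1#1 and si-HOIL-1#2. Its log2 ratios of 0.31 and 0.55 were opposite in sign to those of *HMOX1*.

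*HMOX1*, *FTH1* and *FTL* are known targets of NRF2 (*NFE2L2*), which activates antioxidant genes, and of BACH1, which represses them. *NFE2L2* had log2 ratios of -0.49 and -0.37, and *KEAP1*, which marks NRF2 for degradation, had 0.64 and 0.67. *BACH1* was at 8.27, 7.93 and 7.87 RPKM, log2 ratios of -0.05 and -0.06. The cystine carrier *SLC7A11* was at 13.4, 4.21 and 4.76 RPKM, log2 ratios of -1.47 and -1.32, and thioredoxin reductase *TXNRD1* had -0.67 and -0.59. Of the 15 genes in this list, 7 were above 0 with si-HOIL-1#1 and 6 with si-HOIL-1#2. The medians were -0.05 and -0.16.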

How the data were processed

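RNA-seq was done on 3 Caki-1 libraries, which the labels describe as depleted of ribosomal RNA, directional and paired-end. The authors deposited 1 table with an RPKM value per gene and library. The submitters' notes name hg19, FastQC, Trimmomatic, TopHat2 and HTSeq. The strand setting and the handling of multi-mapping reads are not given in the sources used here. Further columns hold the authors' own comparison (control and treated levels, their log2 fold change, p-value and q-value) and were not used, and the gene of 1 entry that is not a number was left out.

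The header states no unit for the library columns. Library totals came from the commonest step between low values of short RNAs (200 nt at most). Per gene, the shortest length that gave whole reads in the 3 libraries was used, and 1241 of 1241 genes sampled gave one. Whole meant within 0.003 reads, with a wider allowance at very high read numbers. For the ferritin copies, taken as unspliced, the length was instead the listed span of the gene. With 1 library per condition no test was run. The members, lists and limits were chosen with earlier results of these data known. Named genes are the 10 members, *RBCK1*, 8 further genes (*BACH1*, *FBXL5*, *PCBP1*, *PCBP2*, *EPAS1*, *NFE2L2*, *HMOX2* and *FDXR*) and ferritin copies fixed by name, the cell type markers (*TF* and *HAMP* among them), up to 4 genes per list at least 1.5-fold changed with both siRNAs, and the 3 genes nearest to the leading member. *BEST1*, *TIMM23B* and *STEAP3-AS1*, which overlap members, and *ATG9A*, *WDR45*, *CDC42BPA*, *CDC14A* and *HERC2* were named after their values were seen. Alternatives were other pseudocounts, filters, scalings, fold limits and summaries. The steps were tested on simulated data. Scripts used scipy 1.17.1, pandas 2.3.3 and numpy 2.4.6 under Python 3.11.15, with matplotlib 3.10.9 for plots.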

Additional observations from a re-analysis of the deposited data

How the results depend on the processing

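No paired analysis was possible because there was only 1 library for each condition. Depth limits little beside *SLC40A1*, and the spread between cultures is unknown. Of 84 log2 ratios of single members under other pseudocounts, scalings or with ferritin copies added, 63 stayed within the counting interval, 20 moved beyond it and 1 changed sign, that of *FTL* with si-HOIL-1#1 (-0.022 with equal totals). The members changed at least 2-fold numbered 1, 0 and 0 (si-HOIL-1#1, si-HOIL-1#2, both) with a pseudocount of 5 RPKM and 0, 0 and 0 at 4-fold. At 1.5-fold they numbered 4 with si-HOIL-1#2 and 2 with both. The median of the members with si-HOIL-1#1 (0.03) became 0.082 with no filter, -0.022 with equal totals and -0.14 as a mean. With si-HOIL-1#2 (-0.10) it became -0.074 with no filter, -0.15 with equal medians, -0.13 with equal totals and -0.13 as a mean. The median over all genes became -0.029 with si-HOIL-1#1 (equal totals) and -0.0069 with si-HOIL-1#2 (equal medians).

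Genes changed at least 2-fold with both siRNAs numbered 1, 0, 0, 1, 0, 0 and 1 in the lists of uptake, IRP control, chaperones, mitochondrial assembly, cytosolic assembly, heme and NRF2. At 1.5-fold the uptake, IRP control, chaperone, heme and NRF2 lists had 3, 1, 2, 1 and 3. At 4-fold the uptake, mitochondrial and NRF2 lists had 0, and with a pseudocount of 5 RPKM the NRF2 list had 0. The share of all genes changed (6.18%, 4.76% and 2.87%) was 10.9%, 8.75% and 5.43% with a pseudocount of 0.1 RPKM, 1.77%, 1.596% and 1.01% with 5 RPKM, and 2.09%, 1.59% and 0.897% with no filter. Every setting was applied to the same values, so a different limit, filter, pseudocount, scaling, summary or number of genes gives these moves by construction.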

Other observations

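Over 3 libraries, those protein-coding genes averaging 10 RPKM or more whose pair of log2 ratios lay nearest to that of *STEAP3* were *SOX9*, *ASF1B* and *PDCL3*, at Euclidean distances of 0.029, 0.032 and 0.036 among 5548 genes. *SOX9*, a transcription factor, was at 7.01, 16.997 and 16.4 RPKM in si-Control, si-HOIL-1#1 and si-HOIL-1#2. *ASF1B*, a histone chaperone, was at 15.1, 35.1 and 33.0 RPKM, and *PDCL3*, a co-chaperone of protein folding, was at 8.97, 21.4 and 20.8 RPKM. The likeness rests on 3 values per gene.

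RefSeq promoter windows (GRCh38.p14, 250 bases before to 50 after a start) were matched for 8 of the 10 members, not for *FTH1* and *HMOX1*. Windows on 2 chromosomes that hold none of the members were left out. The antioxidant response element TGACNNNGC, searched on both strands, occurred in 1 of 2 windows of *NCOA4* and in 0 windows of the other 7, beside 13.4% of 34395 windows. The p53 decamer, which reads the same in form on both strands, occurred in 2 of 4 windows of *SLC11A2* and 1 of 2 of *NCOA4*, and in 0 of 1 of *STEAP3*, beside 6.65% of windows. These are matches of letters in a short window only.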
